A study of Bos taurus with 18 samples.

Results

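The rumen epithelium of cows fed rice straw (RS) was compared with that of cows fed corn stover (CS). Both diets were total mixed rations for lactating, multiparous Holstein dairy cows and held the same concentrate mixture and corn silage. They differed in the remaining forage, which was rice straw in RS and corn stover in CS, 2 crop residues that gave a near-equal energy density while the RS ration had the larger particle size. Of the 18 cows sequenced, the 12 with these labels were used, 6 on each diet (numbered 1 to 6 after RS or CS), and the 6 cows fed alfalfa hay (AH) were not part of the test. By the study's account, each cow gave 1 library of tissue clipped from the ventral sac of the rumen after slaughter at the end of the feeding trial. A value thus describes a piece of wall of 1 cow. The protocol in the labels names rectal tissue instead, and which holds was not tested. Genes with CPM (reads of the gene scaled to the reads of the cow on all genes) above 1 in at least 3 of the 6 cows of either diet were kept, which were 13182 of 24616 genes. Of these, 12773 passed in both diets, 247 in RS only and 162 in CS only. Identifiers were given gene symbols through the study's list of differentially expressed genes, which names 73 of them, 28 for RS vs. CS and 45 for the comparisons with AH only. All 73 passed the filter.

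The rumen wall is covered by papillae, leaf-shaped projections with a stratified squamous epithelium over a core of connective tissue with blood vessels, fibroblasts and immune cells. The epithelium takes up volatile fatty acids from fermentation, lets urea pass into the rumen, and sheds keratinized cells at its surface, while the core holds matrix proteins such as fibrillin and matrix Gla protein, resident macrophages and antibody-producing cells. Complement, a set of blood and tissue proteins that tag and lyse microbes, is made in part by fibroblasts and macrophages. In a bulk library of such tissue, fewer cells of a type and less RNA per cell cannot be told apart.

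Reads on genes numbered 16099131 to 32252177 in a cow (median 24913740.5 in RS and 19610798.5 in CS), and 3 reads, the limit that a count of 0 allows, were worth 0.093 to 0.186 CPM. The label of the tissue was checked against markers of keratinocytes. Symbols were at hand for 5 of 26 suprabasal markers and for 0 of 12 basal ones, so the check is partial. *TGM3*, a transglutaminase of the upper epithelial layers, was abundant in every cow (RS, lowest 597, median 1088 and highest 2019 CPM, and CS, 247, 1069 and 2167 CPM). The libraries of RS5, CS1 and CS2 stood apart from the other 9. They lay together on the first principal component, which held 48.9% of the variance, and 2987 genes were more than 2-fold lower and 158 more than 2-fold higher in them. They had the fewest genes above 0 (9364 to 9859 genes at 0, against 7660 to 8679 in the other 9), and between 16099131 and 19059955 reads against 18368970 to 32252177. Since 1 of them is an RS and 2 are CS libraries, results are given with and without them. The part of these libraries in the differences between the diets was not tested beyond that.

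**Figure D1:**
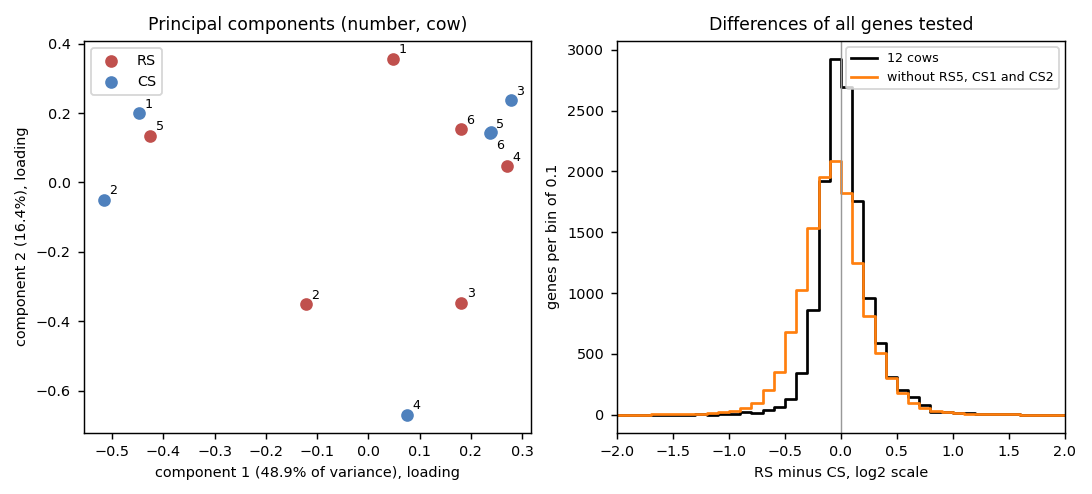
Left, loadings of the 12 cows on the first and second principal components of log2(CPM + 0.5), with RS cows in red and CS cows in blue, and RS5, CS1 and CS2 apart on the left. Right, number of genes by RS minus CS difference on the log2 scale in bins of 0.1, with all 12 cows (black) and without the 3 libraries (orange), where the curve moves to the left.

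The first question was how many genes differed between the 2 crop residue diets. None of the 13182 genes was differentially expressed (DE) between RS and CS by limma, with DE defined as an adjusted p (Benjamini-Hochberg) below 0.05 together with mean CPM that differed over 2-fold (0.0%), and the lowest adjusted p was 0.951. At an unadjusted p under 0.05, 130 genes (0.986%) were higher and 35 (0.266%) lower in RS, and by the exact permutation test over the 924 relabellings of the cows, 157 (1.19%) and 80 (0.607%). All 6 RS cows lay above all 6 CS cows for 6 genes (0.0455%) and below them for 2 genes (0.0152%). The 95% interval of the log2 difference lay within -1 and 1, a 2-fold change in either direction, for 9814 genes (74.5%). The difference was above 0 for 52.0% of the genes with 12 cows and for 38.8% without RS5, CS1 and CS2, when 281 genes were higher and 744 lower at an unadjusted p under 0.05, still with 0 DE genes and a lowest adjusted p of 0.538. The median of all differences moved from 0.008 to -0.072 with those libraries left out.

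One of the non-overlapping genes was *IGLL1*, described below with the immune genes. ENSBTAG00000009124, which carried no symbol, had 2.62 to 5.21 CPM in RS and 0.551 to 2.5 CPM in CS, a log2 difference of 1.04 (SE 0.3). Both genes that lay below in RS were also without a symbol. ENSBTAG00000019251 had 31.7 to 41.6 CPM in RS and 43.0 to 56.9 CPM in CS, and ENSBTAG00000005111 had 19.2 to 24.9 CPM and 25.7 to 50.1 CPM. Their log2 differences were -0.42 (SE 0.14) and -0.55 (SE 0.19), so these were changes well under 2-fold, and their adjusted p with limma was 1.00.

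The 28 genes that the study lists for RS vs. CS were chosen on these samples, so their direction is not independent evidence. In RS, 24 of them had a positive and 4 a negative log2 difference, where 52.0% of all genes had a positive one. No gene of the 28 passed the adjusted p. An unadjusted p under 0.05 was found for 6 (all genes, 0.986% higher and 0.266% lower), and an exact permutation p under 0.05 for 5 (1.8% of all genes). The ratio of mean CPM was over 2-fold for 24 (all genes, 1.06% higher and 0.341% lower). edgeR's exact test with 1 dispersion for all genes, run on the recovered reads, called 17 of the 28, among 82 higher and 10 lower genes in all. On simulated data with 200 changed genes, that test made 95 false calls among 215, and limma 4 among 109. Limma recovered 85% of the genes changed by 2 and 22% of those changed by 1 on the log2 scale. Each simulated gene had its own dispersion, which a test with 1 dispersion for all genes cannot follow. Its false calls were thus built into the simulation and say nothing about the 17 calls. The simulation placed changes only in genes with enough reads and drew each gene on its own. It held no libraries that stand apart and no genes that vary together over cows, so these rates need not hold for the 28 genes.

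Single RS cows carried most of the 24 higher genes. RS3 had the highest level of all 12 cows in 20 of the 24 (8.03% of all genes), and RS4 came next in 19 of these. CS1 or CS2 had the lowest level in 18 of the 24. The share over all genes was not computed for that count. Both are among the 3 libraries that stood apart, where 2987 genes were more than 2-fold lower and 158 higher, so it need not be particular to these genes. The log2 SD between cows was larger in RS than in CS for 22 of the 24, against 31.5% of all genes. The median log2 difference of the 24 genes was 1.09 with 12 cows, 0.69 without RS3 and 0.76 without RS5, CS1 and CS2, and a more than 2-fold ratio of mean CPM was left for 9 of the 28 genes without RS3. The ratio of median CPM was below 1 for *CR2*, *Cd209f* and *FBN1*, which had a higher mean in RS.

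**Figure D2:**
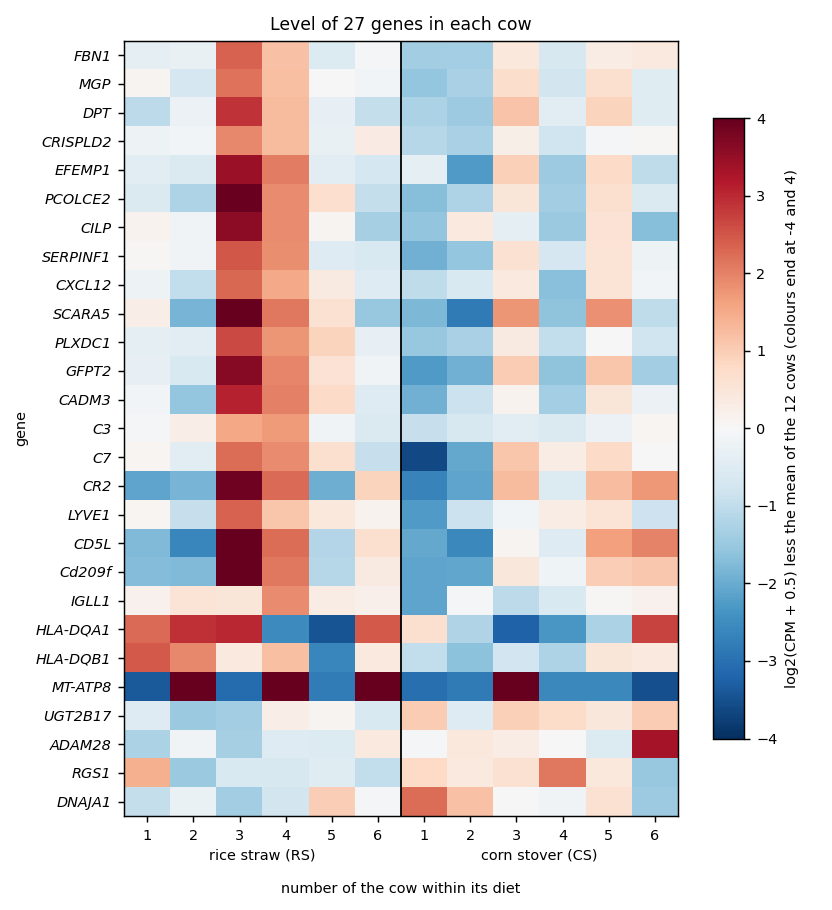
Colour shows log2(CPM + 0.5) of 27 of the 28 genes (rows) in each of the 12 cows (columns) less the gene's mean over the cows, red for above and blue for below. RS3 and RS4 are red in most rows from *FBN1* to *Cd209f*, and CS1 and CS2 are mostly blue, while the class II, *MT-ATP8* and the last 4 rows do not share that order.

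Genes of the connective tissue core made up the largest group. Of 48 prepared fibroblast and matrix genes, 10 had a symbol, all 10 were in the study's list for these diets, and all 10 had a positive log2 difference. Their median was 1.01, or 0.65 without the 3 libraries. These 10 had a symbol only through that list, which was chosen on the same cows, so direction and size were set by the choice. The prepared genes without a symbol were not looked at. None passed the adjusted p and 1, *CRISPLD2*, had an unadjusted p under 0.05. The summed CPM of the 10 was 348 to 2651 (median 443) in RS and 190 to 756 (median 350) in CS. RS3 had 2651 and RS4 1236, while the other 4 RS cows (348 to 443) lay within the range of the CS cows.

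*FBN1* (ENSBTAG00000002278) encodes fibrillin-1, the backbone of the microfibrils that carry elastic fibres. It had 389 CPM in RS3, 169 in RS4 and 50.5 to 72.1 CPM in the other 4 RS cows, and 28.3, 28.9, 99.5, 48.2, 91.0 and 97.7 CPM in CS1 to CS6. Only RS3 and RS4 were above the highest CS cow, and the 2 lowest values were those of CS1 and CS2. The means were 133 ± 133 CPM (SD, n = 6) and 65.6 ± 34.2 CPM, the medians 66.1 and 69.6 CPM. The log2 difference was 0.76 (SE 0.5, exact permutation p = 0.232), and 0.36 without RS3.

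*MGP*, matrix Gla protein, an inhibitor of calcification, was the most abundant of the group, with 123, 203 and 883 CPM as the lowest, median and highest in RS and 66.2, 130 and 323 CPM in CS. *EFEMP1*, which encodes the matrix protein fibulin-3, reached 219 and 81.9 CPM in RS3 and RS4 and 11.8 to 14.6 CPM in the other RS cows, where CS cows had 3.73 to 38.4 CPM. *DPT*, dermatopontin, a small protein that binds collagen fibrils, had 266 CPM in RS3, and its log2 difference of 0.53 (SE 0.64) became 0.0 without that cow. These genes thus overlapped between the diets apart from RS3 and RS4. *PCOLCE2*, an enhancer of procollagen processing, had 129 and 30.9 CPM in RS3 and RS4 and 3.07 to 12.9 CPM in the other RS cows, beside 2.09 to 12.7 CPM in CS. *CILP*, a matrix protein of cartilage and other connective tissue, was low, with a median of 1.87 CPM in RS and 0.719 CPM in CS and 25.3 CPM in RS3. *SCARA5*, a ferritin receptor, spread most among the 10, from 1.85 to 142 CPM in RS and from 0.683 to 29.5 CPM in CS.

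*CRISPLD2*, a secreted protein of mesenchymal cells, had 75.8, 102 and 353 CPM as the lowest, median and highest in RS and 37.9, 71.8 and 110 CPM in CS. RS3, RS4 and RS6 lay above every CS cow, and CS1, CS2 and CS4 below every RS cow. The log2 difference was 0.98 (SE 0.39, 95% interval 0.14 to 1.82, exact permutation p = 0.0628), 0.70 without RS3 and 0.78 without the 3 libraries. *SERPINF1*, which encodes the anti-angiogenic factor PEDF, and *CXCL12*, a chemokine of stromal cells, had log2 differences of 1.05 (SE 0.59) and 0.83 (SE 0.53), with exact permutation p-values of 0.156 and 0.219. Without RS3 they came to 0.65 and 0.45.

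Outside the matrix list, *PLXDC1*, *GFPT2* and *CADM3* were also highest in RS3 and next highest in RS4, as were some complement and immune genes described below. *PLXDC1*, a receptor of vessels and the single gene with a symbol among 16 endothelial markers, had 4.57, 8.58 and 41.8 CPM in RS and 1.87, 3.21 and 8.29 CPM in CS (lowest, median, highest). RS3, RS4 and RS5 lay above every CS cow. Its log2 difference was 1.39 (SE 0.54, exact permutation p = 0.0433), 1.01 without RS3 and 1.00 without the 3 libraries. On plain CPM the exact permutation p was 0.0671. *GFPT2*, an enzyme at the entry of the hexosamine pathway, differed by 1.68 (SE 0.78, exact permutation p = 0.0974), or 1.11 without the 3 libraries, and reached 68.9 CPM in RS3, and *CADM3*, a cell adhesion molecule, differed by 1.25 (SE 0.68), or 0.75 without RS3, and reached 24.5 CPM there.

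**Figure D3:**
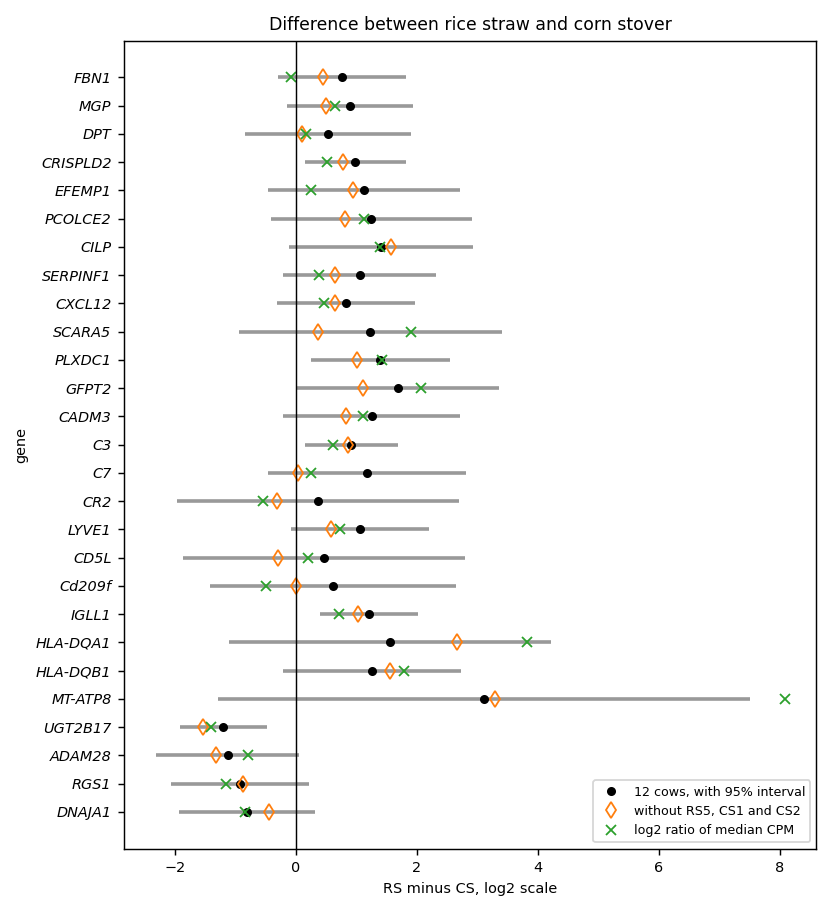
Black points give the RS minus CS difference of 27 of the 28 genes on the log2(CPM + 0.5) scale with its 95% interval in grey, orange diamonds the difference without RS5, CS1 and CS2, and green crosses the log2 ratio of median CPM. Most intervals include 0, and the crosses of *FBN1*, *CR2* and *Cd209f* lie left of 0.

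Complement genes formed the next group. Of 31 prepared genes 6 had a symbol and all 6 had a positive difference, with a median of 0.91 (0.66 without the 3 libraries). None passed the adjusted p. 4 of the 6 were in the study's list for these diets. *C2* and *CFB* were listed for AH vs. RS, which used the same RS cows. The shared direction is thus not independent evidence. The summed CPM of the 6 was 204 to 736 (median 319) in RS and 163 to 288 (median 237) in CS, with RS3 at 736 and RS4 at 538.

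*C2* (ENSBTAG00000007450), the serine protease of the classical pathway, was not in the study's list for RS vs. CS and was picked out after its values were seen. The study lists it for AH vs. RS, a comparison with the same RS cows, so its values are not independent evidence. It had 19.9, 20.5, 22.3, 26.4, 36.7 and 49.4 CPM in the RS cows and 10.3, 10.7, 14.0, 14.4, 18.5 and 21.7 CPM in the CS cows, from the lowest to the highest. 4 of the 6 RS cows lay above every CS cow, and the highest was not RS3. The means were 29.2 ± 11.7 CPM (SD, n = 6) and 14.9 ± 4.45 CPM, a log2 difference of 0.91 (SE 0.27, 95% interval 0.34 to 1.48, exact permutation p = 0.00649, adjusted p with limma 1.00). It was 0.87 without the 3 libraries and stayed between 0.75 and 1.03 with each cow left out in turn.

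*C3* (ENSBTAG00000017280), the protein on which all complement pathways meet, had 31.9, 51.4 and 157 CPM in RS and 24.8, 33.6 and 50.7 CPM in CS (lowest, median, highest). RS2, RS3 and RS4 were above every CS cow and CS1, CS2 and CS4 below every RS cow, with a log2 difference of 0.91 (SE 0.36, exact permutation p = 0.0411). *CFB*, the protease of the alternative pathway, had 100 to 191 CPM in RS and 55.3 to 171 CPM in CS and differed by 0.41 (SE 0.27), or 0.22 without CS3. The difference of *C7*, a part of the membrane attack complex, was 1.17 (SE 0.77) with 12 cows, 0.56 without CS1, where it had 3.2 CPM, and 0.04 (SE 0.59) without the 3 libraries. *CR2*, the complement receptor of B cells and of follicular dendritic cells, had 67.1 CPM in RS3, 21.5 in RS4, 8.0 in RS6 and 0.55 to 0.748 CPM in the other 3 RS cows. Its difference of 0.37 (SE 1.09) turned to -0.31 without the 3 libraries and to -0.37 without RS3.

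Markers of other cells were looked at beside these groups. Of 19 macrophage markers 3 had a symbol. *AIF1*, a general marker of macrophages, had 34.2 ± 5.4 CPM (SD, n = 6) in RS and 35.1 ± 7.55 CPM in CS, a log2 difference of -0.02 with a 95% interval of -0.41 to 0.37, which excludes a 2-fold change. *LYVE1*, a hyaluronan receptor of lymph vessels and of some tissue macrophages, had 7.67, 18.3 and 78.3 CPM in RS and 2.7, 11 and 22 CPM in CS (difference 1.06, SE 0.53, exact permutation p = 0.128), and its difference was 0.70 without RS3 and 0.57 without the 3 libraries. *CD5L*, a protein secreted by macrophages, had 88.1 CPM in RS3, 24.2 in RS4 and 0.354 to 7.73 CPM in the other RS cows, and 0.373 to 20.3 CPM in CS. Its difference was 0.47 (SE 1.09), and -0.3 without RS3. *Cd209f*, listed by the study under the name of a mouse C-type lectin gene, followed the same cows, with 37.9 CPM in RS3 and 9.75 CPM in RS4, and differed by 0.61 (SE 0.95) with 12 cows and by -0.13 without RS3. The median of the 3 macrophage markers was 0.47, and 0.13 without the 3 libraries.

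Genes of the study's list that were mostly highest in RS3 and RS4 varied together over cows. *FBN1* and the genes paired with it all come from that list, which was chosen on these cows. A high r over the 12 cows or within RS was thus partly set by the choice, and its p-values are not independent evidence. No r was computed for genes in general. *FBN1* was correlated with other genes on the log2 scale, with p-values adjusted over the 10 pairs computed, of which 9 are given. Over the 12 cows Pearson's r lay between 0.81 and 0.96 for 8 of them (permutation test, adjusted p 5e-05 to 0.00241) and Spearman's rho between 0.57 and 0.90 (adjusted p 0.00115 to 0.0613). *SERPINF1* had r = 0.96 and rho = 0.90, and *CD5L*, a gene of another cell type, had r = 0.90 and rho = 0.82. Within RS r was 0.82 to 0.95 (exact permutation test, adjusted p 0.0393 to 0.0663) and within CS 0.61 to 0.95 (0.0417 to 0.211), over 6 cows each. By ranks the relation was weaker, with rho of 0.43 to 0.77 within RS (exact permutation test, adjusted p 0.396 to 0.419). Within CS rho was 0.54 to 0.94 (adjusted p 0.0835 to 0.33). Without RS3 and RS4, the 2 cows farthest from the median of *FBN1*, r was 0.53 to 0.90. The relations of *CXCL12*, *C3* and *LYVE1* then had r = 0.57, 0.55 and 0.53 with an unadjusted permutation p of 0.0878, 0.0985 and 0.118, although *C3* had r = 0.84 within CS (exact permutation p = 0.0278), while that of *SERPINF1* kept r = 0.90. Without RS5, CS1 and CS2, r was 0.78 to 0.94. *IGLL1* followed *FBN1* less closely (r = 0.54, rho = 0.49, adjusted permutation p = 0.0742 and 0.111).

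**Figure D4:**
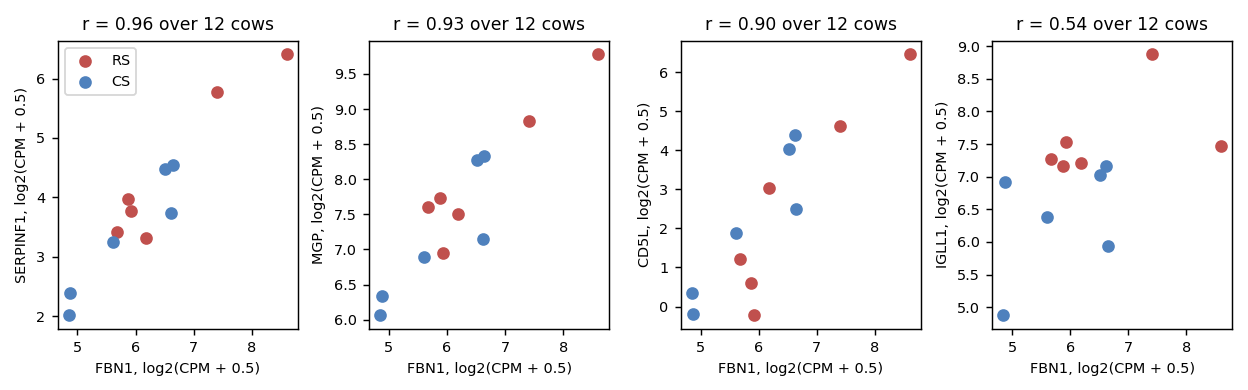
Each panel plots log2(CPM + 0.5) of *SERPINF1*, *MGP*, *CD5L* or *IGLL1* against that of *FBN1* in the 12 cows, RS in red and CS in blue. The cows form 1 line through both diets for *SERPINF1* (r = 0.96) and *MGP* (r = 0.93), while for *IGLL1* (r = 0.54) most RS cows lie above the CS cows at a like level of *FBN1*.

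*IGLL1* (ENSBTAG00000031160), named for the immunoglobulin lambda-like surrogate light chain, was among the genes in which the diets did not overlap. It had 143, 147, 154, 177, 185 and 472 CPM in the RS cows and 28.8, 61.1, 82.5, 120, 130 and 143 CPM in the CS cows, from the lowest to the highest. The lowest RS cow, with 143.4 CPM, lay just above the highest CS cow, CS6 with 142.9 CPM, and RS4 lay far above the others. The means were 213 ± 128 CPM (SD, n = 6) and 94.2 ± 44.3 CPM, and the log2 difference was 1.21 (SE 0.38, 95% interval 0.39 to 2.02, exact permutation p = 0.0022, the smallest this design allows, adjusted p with limma 1.00). It was 1.03 (SE 0.35) without the 3 libraries and 0.90 without CS1. Reads of immunoglobulin genes and of *HLA-DQA1*, *HLA-DQB1*, *UGT2B17*, *HSPA1A*, *TAP* and *LAP* can be shared with near-identical copies, and reads that mapped to several places had been removed, so these levels are uncertain. With *CR2*, *IGLL1* was 1 of 2 genes with a symbol among 15 B cell and plasma cell markers, whose summed CPM was 144 to 493 in RS and 29.1 to 158 in CS.

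2 of 16 genes of MHC class II antigen presentation had a symbol, and their levels differed widely between cows. *HLA-DQA1*, the alpha chain, had 0.819 and 0.21 CPM in RS4 and RS5 but 36.6 to 62.7 CPM in the other 4 RS cows. In CS it had 49.7 CPM in CS6, 11.6 in CS1 and 0.326 to 2.86 CPM in the other 4 cows. *HLA-DQB1*, the beta chain, was lowest in RS5 as well (2.47 CPM) but had 41.5 CPM in RS4, and it ran from 2.47 to 97.7 CPM in RS and from 5.34 to 24.6 CPM in CS. The log2 differences were 1.56 (SE 1.25) and 1.25 (SE 0.69), with exact permutation p-values of 0.314 and 0.147. Without the 3 libraries they were 2.66 (SE 1.31) and 1.56 (SE 0.48).

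**Figure D5:**
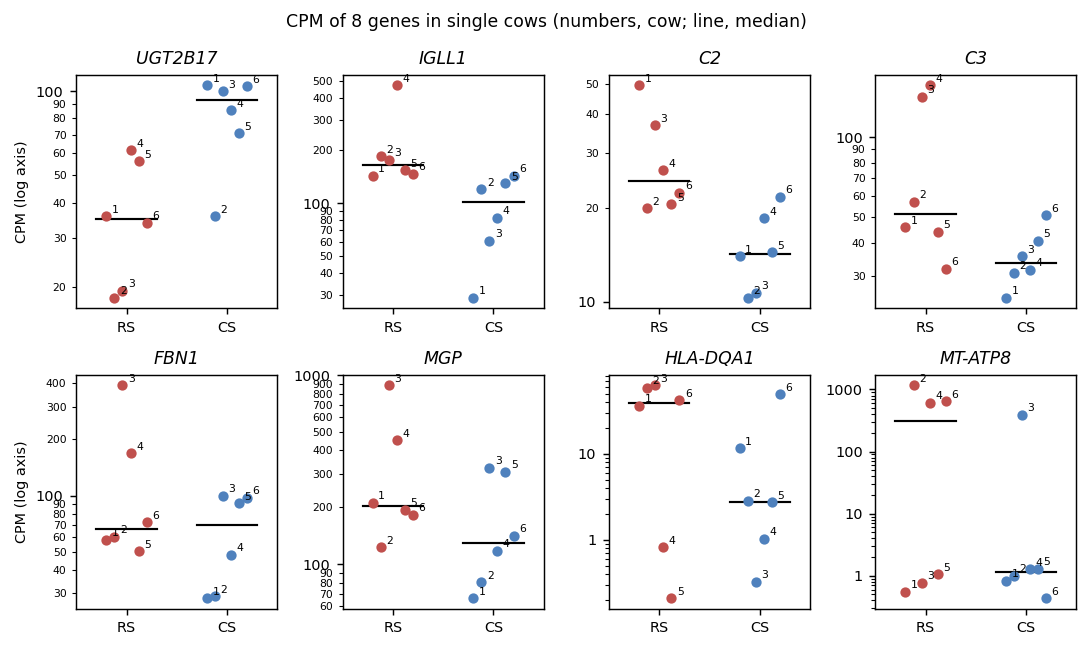
CPM of 8 genes on log axes in single cows, RS in red and CS in blue, each point labelled with the number of the cow and each line at the median of the diet. *UGT2B17* is lower and *IGLL1* and *C2* are higher in most RS cows, RS3 and RS4 lead *C3*, *FBN1* and *MGP*, and *HLA-DQA1* and *MT-ATP8* are either high or low in a cow.

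4 of the 28 listed genes had a negative difference. *UGT2B17* (ENSBTAG00000039991) encodes a UDP-glucuronosyltransferase, which couples steroids and other small molecules to glucuronic acid. It had 18.3, 19.4, 33.9, 35.8, 56.2 and 61.5 CPM in the RS cows and 35.7, 70.6, 85.4, 99.9, 104 and 105 CPM in the CS cows, from the lowest to the highest. Every RS cow lay below 5 of the 6 CS cows, and CS2 alone fell within the RS range. The means were 37.5 ± 18.1 CPM (SD, n = 6) and 83.4 ± 26.9 CPM, 2.22-fold higher in CS. The log2 difference was -1.20 (SE 0.34, 95% interval -1.92 to -0.48, exact permutation p = 0.013, adjusted p with limma 1.00). It lay between -1.43 and -1.03 with single cows left out and was -1.53 (SE 0.31) without the 3 libraries. *EPHX2*, an epoxide hydrolase and the other detoxification gene of 16 with a symbol, had 15.2 ± 2.01 CPM and 16.9 ± 2.95 CPM, a difference of -0.14 with a 95% interval of -0.53 to 0.26.

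*ADAM28*, a metalloprotease of lymphocytes and epithelia, had 1.24 to 5.17 CPM in RS and 2.49 to 5.34 CPM in CS1 to CS5, but 42.9 CPM in CS6. Its log2 difference of -1.13 (SE 0.55, exact permutation p = 0.0498) fell to -0.59 without CS6, and on plain CPM the exact permutation p was 0.0693. *RGS1*, a regulator of G protein signalling in lymphocytes and 1 of 17 T and NK cell markers with a symbol, had 115 CPM in 1 RS cow and 14.9 to 30.6 CPM in the other RS cows, against 14.4, 61.3 and 186 CPM in CS (lowest, median, highest). 5 of the 6 RS cows lay below 5 of the 6 CS cows, and the log2 difference was -0.93 (SE 0.53, exact permutation p = 0.167), with -0.60 without CS4 and -1.33 without CS6. *DNAJA1*, a cochaperone of HSP70, was highest in CS1 with 86.0 CPM, and its difference of -0.81 (SE 0.53) was -0.44 without that cow or without the 3 libraries.

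*MT-ATP8*, an ATP synthase subunit of the mitochondrial genome whose reading frame overlaps that of *MT-ATP6*, was either high or near 0 in a cow. It had 1161, 610 and 646 CPM in RS2, RS4 and RS6 and 393 CPM in CS3, and 0.436 to 1.29 CPM in the other 8 cows. 3 RS cows and 1 CS cow were thus high, and the log2 difference of 3.11 had a 95% interval of -1.29 to 7.50 (exact permutation p = 0.214). It was the single gene with a symbol of 26 mitochondrial ones.

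Another group of genes was present in 5 RS cows. It was found after the data were seen and is given as a description. ENSBTAG00000017121, which had no symbol, had 0 reads in RS6 and 11.2, 14.4, 14.8, 21.8 and 44.2 CPM in the other 5 RS cows, which were 214, 392, 478, 532 and 1123 reads. Of the CS cows, CS5 had 6 reads (0.288 CPM) and the other 5 had 0.

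In all, 20 genes had at least 3 reads in each of the 5 RS cows other than RS6, no read in RS6 and a lower CPM in every CS cow than in any of these RS cows. The like pattern with another RS or CS cow as the one at 0 was found for 0 to 4 genes per cow. Only 7 of the 20 passed the filter on low values, and 0 had a symbol. Their summed CPM was 31.0, 32.0, 38.9, 56.5 and 93.8 in the 5 RS cows and 0.0465 to 1.87 in CS. RS2 was the highest of the 18 cows for 16 of them, and the share of ENSBTAG00000017121 in the sum lay between 36.2% and 47.1% in the 5 RS cows. Among the AH cows, AH4 had a sum of 30.0 CPM, close to the lowest of the 5 RS cows, and the other 5 had 0.0 to 1.82 CPM. The 6 genes that limma called without RS6 were all of this group, as its definition by RS6 makes likely, so that count is no test of it. DESeq2 on the recovered reads, with RS6 kept, called 7 genes, of which 6 were of this group. As the group was picked on the same reads, that count is no test either.

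No gene of the epithelium itself passed the test. Of the 5 suprabasal keratinocyte genes with a symbol, 1 was higher and 4 lower, none at an unadjusted p under 0.05, with a median of -0.37 (-0.31 without the 3 libraries). *PADI1*, picked out after its values were seen, had the largest difference of the 5, -1.32 (SE 0.63, exact permutation p = 0.0974). It was -1.60 without the 3 libraries, and 4 of the 6 RS cows lay below and 2 above every CS cow. *KRT36* differed by -0.82 (SE 1.17), and by 0.06 without CS5. *TGM3* differed by 0.19 (SE 0.45), which became -0.19 without CS1. *DSG1*, a desmosomal cadherin, had 3.67 to 30.4 CPM in RS and 4.35 to 19.6 CPM in CS (difference -0.26, SE 0.48), and *SLURP1*, a secreted regulator of keratinocytes, 5.19 to 16.5 CPM and 3.84 to 31.6 CPM (difference -0.37, SE 0.46). *ARG1*, the arginase of the urea cycle, was between 11.4 and 29.7 CPM in RS5, CS1 and CS2 and between 44.3 and 135 CPM in the other 9 cows, and it differed by -0.01 (SE 0.59) between the diets.

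Of 20 genes of epithelial defence, 8 had a symbol, 6 with a positive and 2 with a negative difference and a median of 0.22. *S100A8* and *S100A9*, which form the antimicrobial protein calprotectin, were abundant in every cow, with 7581 ± 2036 CPM (SD, n = 6) in RS and 6814 ± 2573 CPM in CS for *S100A8* and 1781 ± 450 CPM and 1710 ± 498 CPM for *S100A9*. Their differences were 0.19 (95% interval -0.37 to 0.75) and 0.06 (-0.41 to 0.53), so a 2-fold change between the 2 diets lay outside both intervals. *PI3*, an elastase inhibitor, had 137 to 866 CPM in RS and 23.4 to 1093 CPM in CS (difference 0.78, SE 0.73, but 0.13 without CS1 and 0.40 without the 3 libraries). *TAP* and *LAP*, beta-defensins of bovine epithelia, differed by 0.31 (SE 0.52) and 0.25 (SE 0.6), and the sign of both turned when the recovered reads were tested by edgeR or DESeq2.

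*SLC14A1* (ENSBTAG00000019870), the urea transporter through which the epithelium returns urea to the rumen, was the single gene with a symbol of 25 genes of transport and ketogenesis. The study lists this gene for AH vs. RS, so its symbol was known through a comparison with the same RS cows. *SLC14A1* values are thus not independent evidence. The gene had 177, 352, 380, 400, 494 and 517 CPM in the RS cows and 365, 491, 518, 604, 713 and 749 CPM in the CS cows, from the lowest to the highest. 4 of the 6 CS cows were above every RS cow and RS3 and RS5 below every CS cow, so the diets overlapped in part. The means were 387 ± 122 CPM (SD, n = 6) and 573 ± 145 CPM, and the log2 difference was -0.60 (SE 0.25, exact permutation p = 0.0455, adjusted p with limma 1.00). It was -0.39 without RS5 and -0.44 (SE 0.16) without the 3 libraries.

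Heat shock genes moved with single cows of both diets. The summed CPM of the 6 with a symbol, of 18 prepared, was 13153 in RS5 and 10319 in CS2, and 434 to 1546 in the other 10 cows. *HSPA1A*, the inducible HSP70, had 9861 CPM in RS5 and 6199 CPM in CS2 against 223 to 1181 CPM elsewhere. *BAG3* and *HSPB8*, which act together in chaperone-assisted autophagy, had 783 and 598 CPM in RS5 and 1077 and 650 CPM in CS2. All 6 had a negative difference, with a median of -0.34, but those of *BAG3*, *HSPB8*, *HSPA1A*, *HSPH1* and *ZFAND2A* were positive without CS2, and none reached an unadjusted p under 0.05.

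3 of 24 growth factor genes had a symbol and a negative difference, with a median of -0.54 and -0.86 without the 3 libraries. *IGFBP3*, which binds insulin-like growth factors, had 33.9 to 69.7 CPM in RS and 40.4 to 153 CPM in CS, where CS3 and CS5 were high (difference -0.54, SE 0.35, and -0.33 without CS5). *CYR61*, a matricellular protein, had 24.8 ± 9.88 CPM (SD, n = 6) in RS and 46.8 ± 31.6 CPM in CS (difference -0.72, SE 0.46, and -0.45 without RS2), and *NOV*, of the same family, differed by -0.12 (SE 0.26). *IFI47*, the single interferon-induced gene of 20 with a symbol, had 0.0551 to 21.4 CPM in CS and 0.806 to 54.5 CPM in RS. No symbol was at hand for the lists of apoptosis, blood, junctions, neutrophils, proliferation, or smooth muscle and pericytes. Of the 45 genes that the study lists only for the comparisons with AH, 13 had a positive and 32 a negative difference between RS and CS. Of all genes, 52.0% had a positive one. The 45 were chosen in comparisons that used these RS or CS cows, so their direction is not independent evidence. None passed the adjusted p, and 3 had an unadjusted p under 0.05 (all genes, 0.986% higher and 0.266% lower). These were *C2*, higher in RS, and *SLC14A1* and *FABP4*, lower in RS. *FABP4* differed by -1.04 (SE 0.46, exact permutation p = 0.0844). The 95% interval lay within -1 and 1 for 9 of the 45, against 74.5% of all genes.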

How the data were processed

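RNA-seq libraries of rumen epithelium from 6 RS and 6 CS cows were compared. The authors used TopHat2 for alignment (UMD3.1), HTSeq for dropping mismatched and multiply mapped reads and for counting on Ensembl genes, and deposited CPM, in which a gene's reads are divided by those on all genes. Their protocol describes a stranded mRNA kit and TRIZOL, where the labels name a total RNA kit, mirVana and rectal tissue. Which holds was not tested. The column names gave each cow's sample, and 0 value columns were left unmapped. No batch, lane or date is given in the sources used here.

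From the CPM, whole reads were recovered (100% of values whole at a tolerance of 0.02). Pairs of cows of a diet differed beyond sampling noise (chi-square per degree of freedom 44.4 to 273 over 30 pairs), so all were kept as replicates. Floors of 3 reads cover counting error only. Genes above 1 CPM in 3 or more of the 6 cows of either diet were tested on log2(CPM + 0.5) with limma 3.58.1 (R 4.3.3) with an intensity trend, over the 12 cows, with Benjamini-Hochberg adjustment over 13182 genes. All log2 differences, standard errors and 95% intervals are limma's on that scale, which understates changes of low genes. For single genes a two-sided exact permutation test on log2 values was used, and pairs of genes were tested by two-sided permutation tests (exact for 6 cows, otherwise up to 100000 resamples). Alternatives changed the pseudocount, filter, cows, scaling, variance model and a replicate block, left out each cow, or used edgeR 4.0.16 and DESeq2 1.42.0 on recovered reads. Leaving out the 3 libraries was chosen after seeing the data. All tools were tested on simulated data (13182 genes). Permutation tests ran in numpy 2.4.6 under Python 3.11.15, with ranks from scipy 1.17.1, and plots in matplotlib 3.10.9.

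The genes compared, the 22 gene lists (421 symbols, of which 51 could be paired with identifiers) and the tests were chosen with earlier results of these data known. Named are the 28 listed genes, non-overlapping genes, 11 genes the study lists for AH comparisons, and up to 4 members of each list with the highest CPM. *C2*, *FABP4*, *PADI1*, *ZFAND2A* and ENSBTAG00000017121 are named besides these. One listed gene is counted but not reported by name here. The fold changes and p-values in the study's list were not used, only its identifiers and symbols. No sequences or coordinates are given, since the gene table at hand was of another build.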

Additional observations from a re-analysis of the deposited data

Results flagged for a closer look

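Among 50 genes and 2 diets (100 sets of 6 cows), 12 values lay apart from those of the other cows of the diet by Dixon's criterion on log2 values (the gap to the nearest cow over the range of the 6). About 1 in 20 such sets is expected by chance.

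5 of these values were heat shock genes in 2 of the libraries that stood apart. In CS2, *BAG3* had 1077 CPM, *HSPB8* 650 CPM and *ZFAND2A*, a stress-induced zinc finger gene, 128 CPM, and in RS5 *HSPB8* had 598 CPM and *ZFAND2A* 77.5 CPM. *SLC14A1* in RS5 was low with 177 CPM, and *UGT2B17* in CS2 was low with 35.7 CPM. *ADAM28* was high in CS6 with 42.9 CPM, and its difference between the diets rested largely on that cow. *IGLL1* was high in RS4 with 472 CPM, *RGS1* in 1 RS cow with 115 CPM and *MT-ATP8* in CS3 with 393 CPM. *CYR61* was low in RS2 with 8.38 CPM.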

How the results depend on the processing

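The 0 DE genes held under all alternatives but 3. With 1 dispersion for all genes edgeR's exact test called 82 higher and 10 lower, DESeq2 called 7 higher, and leaving out 1 cow gave 0 to 6 higher, the 6 without RS6. The calls of DESeq2 and those without RS6 had 5 genes in common. Genes at an unadjusted p under 0.05, 130 higher and 35 lower, numbered 355 and 99 without a filter on low values, 199 and 64 with edgeR's quasi-likelihood test, 236 and 81 with DESeq2, 381 and 139 with the common dispersion, and 281 and 744 without the 3 libraries that stood apart. With single cows left out they ranged from 71 (without RS3 or RS4) to 214 (without RS5) higher and from 17 (without CS3) to 102 (without CS1) lower. Non-overlapping genes ranged from 6 to 20 higher and 2 to 12 lower with a cow left out, were 123 and 301 without the 3 libraries, and with TMM scaling 0 were lower. The correlation of *FBN1* with *IGLL1* passed p = 0.05 with all 18 cows (r = 0.51, permutation p = 0.0294) and without RS3 (r = 0.62, permutation p = 0.0398), and ranged from 0.39 to 0.63 with single cows left out. The causes were not tested.

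The study names a randomized complete block design for its statistics on diets, fermentation, papilla width and qPCR. The labels do not give the block of a cow, and the replicate numbers are not stated to pair cows. Same-numbered cows deviated from their diet's mean with r of 0.35, 0.15, 0.20, 0.24, -0.39 and 0.38 for numbers 1 to 6, so they were not treated as pairs. With the replicate block, 152 genes were higher and 29 lower at an unadjusted p under 0.05, with 0 DE genes.

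Over 50 single genes and 1243 settings, 15 genes took the other sign at least once. With edgeR's quasi-likelihood test, DESeq2 and the common dispersion, *TAP* came to -0.14, -0.16 and -0.14, *LAP* to -0.23, -0.25 and -0.23 and *HSPA1A* to 0.46, 0.43 and 0.46. The difference of mean CPM also had the other sign for *TAP* (exact permutation p = 0.965), *LAP* (0.963) and *HSPA1A* (0.801). Without the 3 libraries *CD5L* was -0.29, *CR2* -0.31, *TGM3* -0.20 and *AIF1* 0.13. With single cows left out, the lowest and highest log2 differences were -0.3 and 1.04 for *CD5L*, -0.37 and 0.83 for *CR2*, -0.13 and 1.02 for *Cd209f*, -0.02 and 0.18 for *S100A9*, -0.16 and 0.6 for *LAP*, -0.46 and 0.38 for *ARG1*, -0.91 and 0.47 for *BAG3*, -0.94 and 0.29 for *HSPB8*, -0.19 and 0.43 for *TGM3*, -0.77 and 0.47 for *HSPA1A*, -1.02 and 0.09 for *HSPH1*, -1.16 and 0.46 for *ZFAND2A*, -0.12 and 0.05 for *AIF1* and -0.32 and 0.04 for *NOV*.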
